A study of Rattus norvegicus with 20 samples.

Results

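The collagen genes of the dorsal root ganglion (DRG) were taken as the protein-coding rows of the deposited count table whose symbol has the form of a collagen chain (Col, a type number, the letter a and a chain number). This gave 42 genes of 39747 in the table. The RNA came from 20 DRG of 14 female Sprague-Dawley rats. These had eaten a soy oil diet (SOD, AIN-93G-based) or an isocaloric fish oil-enriched diet (FOD) for 4 weeks before surgery. The methods of the study give the age of the rats as 8 to 10 weeks, ahead of acclimatization and the diets, so they were older at collection. In chronic constriction injury (CCI), 4 loose chromic gut ligatures were tied on the left sciatic nerve, and in sham rats (CT) the nerve was exposed without ligatures. The groups were left DRG of SOD-CT (n = 4), SOD-CCI (n = 3), FOD-CT (n = 3) and FOD-CCI rats (n = 4), and right DRG of the same 3 SOD-CCI rats and of 3 of the 4 FOD-CCI rats, called contralateral. All rats were wild type by their labels and were perfused with saline before dissection. The results text of the study places collection 7 days after surgery, while the description of the series lets diets run on for 4 weeks, so the time is given as stated and not settled here.

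Collagens are extracellular proteins built from 3 chains wound into a triple helix. In ganglion and nerve they form the fibrils of the epineurium and endoneurium, the basement membranes around Schwann cells, satellite glia and vessels, and the sheath around fascicles, and fibroblasts, Schwann cells, perineurial cells and vascular cells are known to make them. Fibrillar chains (10 of the 42) give tensile strength, type IV chains (6) form the basement membrane network, and type VI chains (6) form beaded filaments beside cells. Fibril-associated chains (9) decorate fibrils, type VIII and X chains (3) form short-chain networks, and multiplexins (2) sit at the edge of basement membranes. The others are 3 transmembrane chains, the anchoring fibril chain Col7a1, and Col26a1 and Col28a1. Col1a2, the partner chain of Col1a1, is listed in the file under a placeholder symbol, was matched by its gene ID, and is given beside Col1a1 without being counted as a member.

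The genes of the main basement membrane chains, Col4a1 and Col4a2, start head to head on chromosome 16 in the RefSeq annotation of GRCr8. The bases between the 2 starts are shown because they are the whole of the DNA that separates the pair, whose levels are compared below. The stretch is chr16:84885521-84885596 on the plus strand, 76 bases long, with the GC box in capitals (GGGCGG, here as its reverse complement).
Col4a1 and Col4a2 gap: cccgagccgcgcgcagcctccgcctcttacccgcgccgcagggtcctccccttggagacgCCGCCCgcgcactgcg
GC box letters were searched on both strands and found 1 time, and 18.13% of 33469 promoters held them in the 76 bases before their start. The letters CCAAT were found 0 times on either strand, against 12.99% of promoters. A match of letters is a description and not a shown binding site. All 42 members matched a RefSeq gene by ID.

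Libraries held 22547190 to 54437581 counts, so the spread between rats and not counting error set the precision for all but the lowest genes. Counts were scaled to a common library total (CPM) and summed over marker lists. The sums ran from 4062 to 27995 for 10 neuron markers and from 9986 to 56480 for 8 Schwann cell markers. Both lists were read in every library, but several libraries also held other tissue. The lowest neuron sum was that of FOD-CCI contralateral replicate 1, where the neuron marker Isl1 was at 0. Its mean log2 CPM over the neuron list was 6.396, against 8.216 or more elsewhere. The sums do not settle how much ganglion that library held, and it is the right DRG of FOD-CCI rat 1. Spinal cord glia markers (7 genes) summed to 2100 to 3462 CPM in replicate 1 of FOD-CT, FOD-CCI and FOD-CCI contralateral, against at most 69.5 CPM elsewhere. Skeletal muscle markers (10 genes) summed to 96625 CPM in SOD-CT replicate 1, 21362 in FOD-CT replicate 2, 7732 in FOD-CCI contralateral replicate 3, 5402 in SOD-CT replicate 4 and 2030 in SOD-CCI contralateral replicate 2, against at most 1753 elsewhere. The library labelled FOD-CCI replicate 1 held 354 CPM of 10 nerve injury genes, inside the FOD-CT range of 314 to 521, whereas the other 3 FOD-CCI libraries held 1266 to 3479 and the SOD-CCI libraries 2025 to 2477. The main left-to-right results are therefore also given without that rat.

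Fibrillar chains made up most of the signal of the 42 members. Levels are given as the deposited FPKM, fragments scaled to gene length and library depth, which can be compared between genes. The median over libraries of the fibrillar share of summed member FPKM was 54.6%, against 15.0% for basement membrane chains, 9.53% for fibril-associated chains, 6.11% for multiplexins and 5.74% for type VI chains. The mean FPKM was 96.5 for Col3a1 and 88.4 for Col1a1, and then 34.7 for Col4a1, 25.6 for Col4a2 and 25.4 for Col5a3, a type V chain that is known from Schwann cells. Mean FPKM was at least 10 for 13 members and under 1 for 18. The lowest were Col7a1, Col17a1, a transmembrane chain of epithelia, and Col6a4, at 0.0562, 0.0493 and 0.0142 FPKM. There were 25 members above 0 counts in every library and 17 at 0 in at least 1, and 8 members passed the filter on low counts in none of the 3 models.

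**Figure D1:**
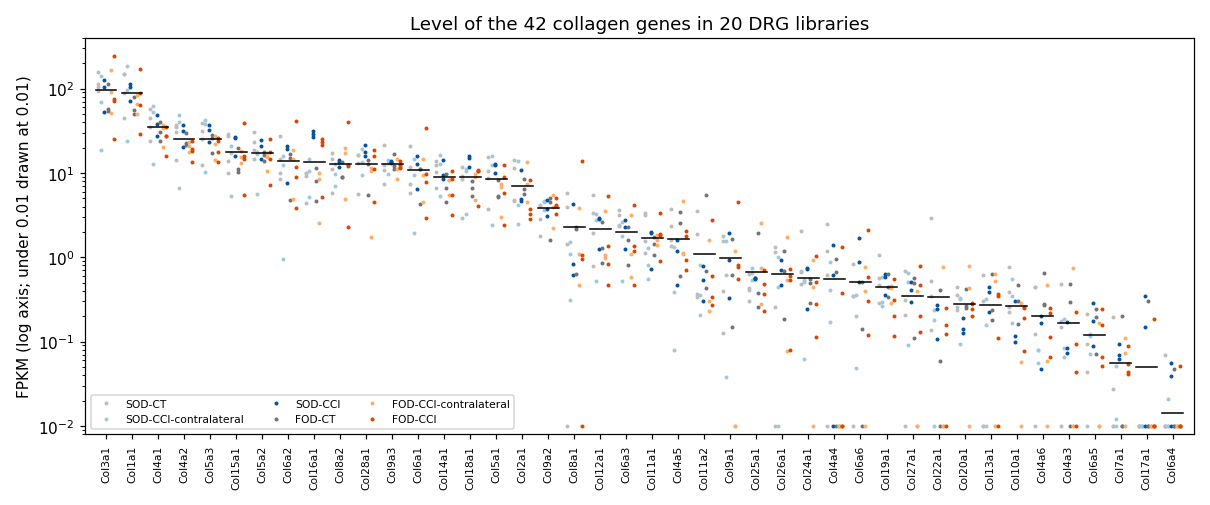
FPKM of the 42 collagen genes on a log axis, ordered by mean level, with 1 point per library coloured by group and a black line at the mean over 20 libraries. The genes span from 96.5 FPKM for Col3a1 to 0.0142 for Col6a4, and the groups overlap for most genes.

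On SOD, Col3a1 read 93.4, 115, 156 and 103 FPKM in sham DRG, 18.7, 141 and 68.6 in contralateral DRG and 52.1, 127 and 106 in CCI DRG. On FOD, Col3a1 read 57.7, 53.6 and 113 FPKM in sham DRG, 50.8, 91.2 and 165 in contralateral DRG and 25.6, 75.4, 71.8 and 246 in CCI DRG. Col3a1 encodes the chain of type III collagen, the partner of type I in soft connective tissue. Its groups overlapped on both diets, with the lowest value in a contralateral DRG and the highest in FOD-CCI replicate 4. The type I chains Col1a1 and Col1a2 form 1 fibril protein. On SOD, Col1a1 read 44.7, 89.1, 148 and 151 FPKM in sham DRG, 24.05, 186 and 96.1 in contralateral DRG and 71.5, 103 and 115 in CCI DRG. On FOD, Col1a1 read 50.4, 56.4 and 79.6 FPKM in sham DRG, 50.2, 66.6 and 83.2 in contralateral DRG and 28.6, 89.9, 63.1 and 172 in CCI DRG. The highest Col1a1 value on FOD was again FOD-CCI replicate 4, and the groups overlapped. On SOD, Col1a2 read 57.1, 82.7, 160.3 and 154 FPKM in sham DRG, 46.99, 152 and 93.96 in contralateral DRG and 77.04, 99.1 and 118 in CCI DRG. On FOD, Col1a2 read 63.7, 65.4 and 102 FPKM in sham DRG, 54.4, 77.4 and 94.05 in contralateral DRG and 24.9, 87.1, 70.8 and 184 in CCI DRG. The ratio of Col1a1 to Col1a2 had a median of 0.925 (0.512 to 1.23, n = 20 libraries), lowest in SOD-CCI contralateral replicate 1. The ratio of Col3a1 to Col1a1 had a median of 1.03 (0.684 to 2.09).

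The basement membrane pair, which has 76 bases between its starts, was compared library by library. On SOD, Col4a1 read 24.1, 34.9, 44.4 and 57.4 FPKM in sham DRG, 12.6, 61.7 and 52.5 in contralateral DRG and 27.4, 38.1 and 48.3 in CCI DRG. On FOD, Col4a1 read 23.6, 30.99 and 39.9 FPKM in sham DRG, 34.5, 36.8 and 20.5 in contralateral DRG and 16.1, 27.3, 27.1 and 34.96 in CCI DRG. No group of Col4a1 stood clear of the others. On SOD, Col4a2 read 14.3, 30.4, 37.4 and 35.5 FPKM in sham DRG, 6.72, 40.7 and 48.2 in contralateral DRG and 20.2, 31.6 and 36.9 in CCI DRG. On FOD, Col4a2 read 22.4, 21.5 and 29.4 FPKM in sham DRG, 20.8, 23.4 and 17.5 in contralateral DRG and 13.4, 18.5, 19.1 and 23.7 in CCI DRG. Col4a1 was above Col4a2 in all 20 libraries, with a median ratio of 1.39 (1.05 to 1.88), and the groups of Col4a2 overlapped too. The other type IV chains were low, from a mean of 1.65 FPKM for Col4a5 to 0.168 for Col4a3.

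All members together took 0.0731 to 0.437% of a library's counts. The group means were 0.265 ± 0.121% (SD, n = 4) in SOD-CT, 0.242 ± 0.153% (n = 3) in SOD-CCI contralateral, 0.288 ± 0.0793% (n = 3) in SOD-CCI, 0.201 ± 0.0514% (n = 3) in FOD-CT, 0.207 ± 0.0467% (n = 3) in FOD-CCI contralateral and 0.234 ± 0.145% (n = 4) in FOD-CCI. The groups overlapped. The highest share was that of FOD-CCI replicate 4, which also held the most fibroblast markers (10 genes, 4833 CPM), and the lowest that of SOD-CCI contralateral replicate 1, which held the fewest (483 CPM). The part of fibroblast content in the collagen share was not tested, and in bulk tissue more cells of a type and more RNA per cell cannot be told apart.

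**Figure D2:**
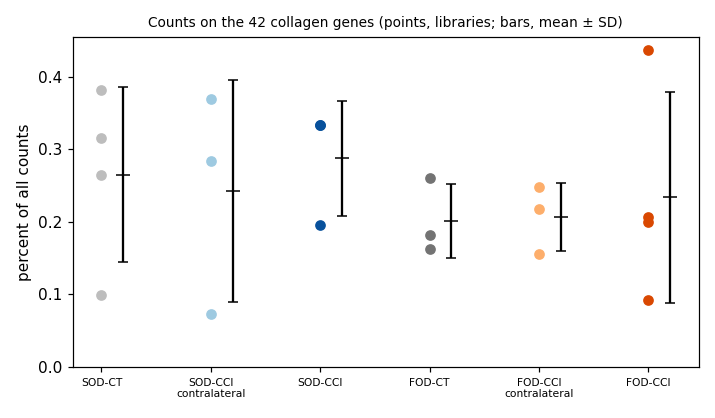
Percent of all counts on the 42 collagen genes, with 1 point per library in 6 groups and bars at the mean ± SD. The shares run from 0.0731 to 0.437%, and the groups overlap.

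Col16a1 was the 1 collagen gene that edgeR called between the injured and the contralateral side, and edgeR called no member between injured and sham DRG. It encodes the chain of type XVI collagen, a fibril-associated collagen of connective tissue. On SOD, Col16a1 read 4.401, 9.98, 10.01 and 9.22 FPKM in sham DRG, 5.16, 14.5 and 10.7 in contralateral DRG and 26.6, 31.3 and 28.9 in CCI DRG. On FOD, Col16a1 read 4.71, 11.4 and 7.98 FPKM in sham DRG, 2.54, 8.42 and 10.1 in contralateral DRG and 5.12, 21.3, 25.3 and 23.2 in CCI DRG. All 3 SOD-CCI DRG were above all other libraries, 3 of the 4 FOD-CCI DRG were above all sham and contralateral DRG, and FOD-CCI replicate 1 lay inside their range. Within rats the left DRG was higher in 6 of 6, by 2.35, 1.11 and 1.43 on the log2 scale in SOD-CCI rats 1 to 3 and 0.98, 1.33 and 1.31 in FOD-CCI rats 1 to 3. Col16a1 was the only 1 of 31 tested members higher on the left in every rat, and 5.09% of 14549 genes were. In edgeR with the rat as a block, the log2 fold change (log2FC) of left against contralateral DRG, as the mean of both diets, was 1.43 ± 0.17 (SE, 6 rats, edgeR adjusted p = 0.0180), or 2.70-fold. It ranked 15 of all genes by p. A member was called where its adjusted p was 0.1 or less and it differed by 1.2-fold or more, which 0.962% of genes reached in this comparison, and Col16a1 was the 1 member called. The exact sign-change test over 6 rats on log2(FPKM + 0.1) gave a two-sided p of 0.03125, the smallest that 64 sign changes allow. Every gene with 1 direction in 6 of 6 rats has that p. It restates the count of rats and is not adjusted over genes.

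The left-to-right difference of Col16a1 was 1.64 ± 0.25 on SOD (3 rats, edgeR adjusted p = 0.0939, called) and 1.22 ± 0.25 on FOD (3 rats, edgeR adjusted p = 0.438, not called). The SOD call was lost in 7 of 12 alternatives, with an adjusted p of 0.104 with DESeq2 size factors in edgeR, 0.107 with limma, 0.834 without the rat as a block, 0.661, 0.723 and 0.429 without SOD-CCI rats 1, 2 and 3, and 0.121 without FOD-CCI rat 2. Among the 5 that kept it, leaving out FOD-CCI rat 1 and leaving out libraries with muscle or spinal cord transcripts were the same fit. Fish oil minus soy oil was −0.42 ± 0.34 (edgeR adjusted p = 0.997), so the diets were not shown to differ. Without the rat of FOD-CCI replicate 1, the mean of both diets was 1.48 (edgeR adjusted p = 0.00274) and the FOD value 1.32 (edgeR adjusted p = 0.107). Without SOD-CCI replicate 3 the mean was 1.48, but the call was lost (edgeR adjusted p = 0.111). It was also lost without the rat as a block, at 1.41.

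Against sham DRG, Col16a1 was higher by 1.81 ± 0.46 in SOD-CCI (edgeR adjusted p = 0.266), by 1.22 ± 0.47 in FOD-CCI (edgeR adjusted p = 1.00) and by 1.51 ± 0.33 as the mean of both diets (edgeR adjusted p = 0.111), none of which was called. The exact permutation test within diets, over 1225 splits, gave a two-sided p of 0.0049 for the mean difference in log2(FPKM + 0.1), a p for 1 gene that is not adjusted over genes. Without FOD-CCI replicate 1, the mean was 1.67 (edgeR adjusted p = 0.00507) and the SOD value 1.81 (edgeR adjusted p = 0.0722), both called. The contralateral DRG differed from sham by 0.26 ± 0.48 on SOD and −0.19 ± 0.52 on FOD (edgeR adjusted p = 0.917 and 1.00), smaller than their errors.

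Other measures moved between the sides in the same rats. Macrophage markers (8 genes) were higher on the left 6.496-, 4.88- and 3.02-fold in SOD-CCI rats 1 to 3, and their left-to-right ratio was 0.508, 2.78 and 1.47 in FOD-CCI rats 1 to 3. Fibroblast markers had ratios of 2.79, 1.58 and 1.64 on SOD and 0.538, 1.03 and 0.549 on FOD. Nerve injury genes had ratios of 6.12, 6.85 and 6.02 on SOD and 1.199, 3.42 and 9.44 on FOD. The part of these cells in the level of Col16a1 was not tested.

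**Figure D3:**
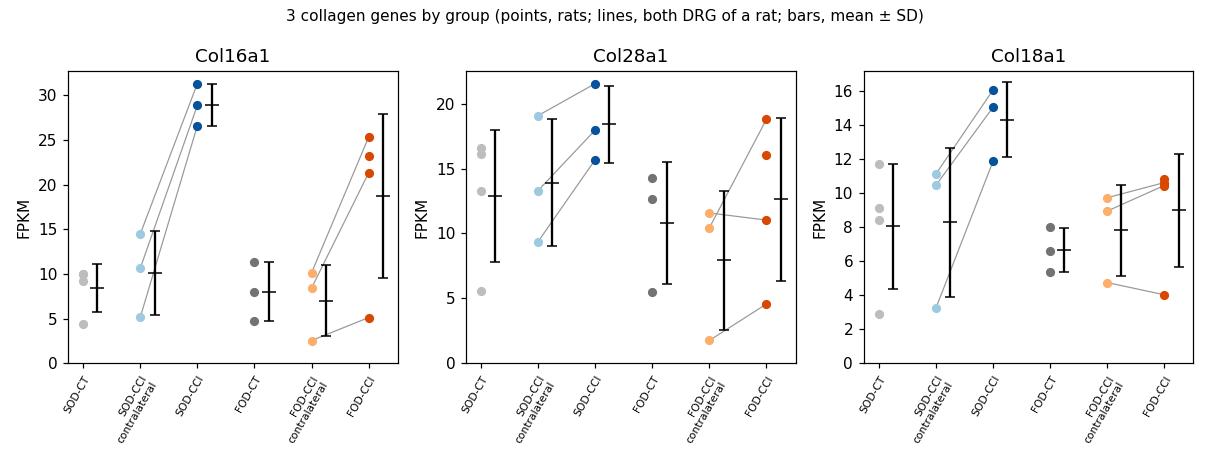
FPKM of Col16a1, Col28a1 and Col18a1 by group, with 1 point per DRG, grey lines joining the DRG of a rat, and bars at the mean ± SD. Every line of Col16a1 rises from the contralateral to the CCI side, whereas 1 of 6 lines falls for Col28a1 and for Col18a1.

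Among the other members, edgeR called no left-to-right difference over both diets, while DESeq2 called Col6a6 besides Col16a1 (5.54% of genes). With no adjustment, at a p under 0.05, 4 of 31 were higher (7.49% of all genes were) and 0 were lower (4.1%). These were Col16a1, Col28a1, Col18a1 and Col6a6. The median log2FC of the members was 0.15, against 0.03 for all genes, and 21 were above 0 and 10 below. Col28a1 encodes a chain that is known mostly from peripheral nerve, at the nodes of Ranvier and around non-myelinating glia. On SOD, Col28a1 read 5.59, 16.5, 16.1 and 13.3 FPKM in sham DRG, 9.37, 19.1 and 13.3 in contralateral DRG and 15.7, 21.5 and 17.96 in CCI DRG. On FOD, Col28a1 read 5.48, 12.7 and 14.3 FPKM in sham DRG, 1.75, 11.6 and 10.4 in contralateral DRG and 4.56, 11.03, 18.8 and 16.1 in CCI DRG. The groups overlapped, and the left DRG was higher in 5 of 6 rats. Its left-to-right log2FC was 0.58 ± 0.19 (edgeR adjusted p = 0.282, exact sign-change p = 0.0625), and 0.42 without the rat of FOD-CCI replicate 1.

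Col18a1, chosen after its values were seen, is the multiplexin whose C-terminal fragment is endostatin. On SOD, Col18a1 read 2.92, 9.098, 11.7 and 8.397 FPKM in sham DRG, 3.24, 11.1 and 10.4 in contralateral DRG and 11.9, 16.04 and 15.02 in CCI DRG. On FOD, Col18a1 read 5.37, 6.59 and 7.995 FPKM in sham DRG, 4.74, 8.93 and 9.71 in contralateral DRG and 4.02, 10.4, 10.6 and 10.8 in CCI DRG. SOD-CCI DRG were above all SOD-CT and SOD contralateral DRG, whereas the FOD groups overlapped through FOD-CCI replicate 1. The left-to-right log2FC was 0.51 ± 0.19 over both diets (edgeR adjusted p = 0.358), with 0.97 ± 0.28 on SOD and 0.04 ± 0.27 on FOD (edgeR adjusted p = 0.325 and 0.983). Without the rat of FOD-CCI replicate 1 the mean was 0.57.

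Several of the larger differences between the sides were those of low genes. Col6a6 is a type VI chain. On SOD, Col6a6 read 0, 0.343, 0.842 and 0.345 FPKM in sham DRG, 0.0492, 0.201 and 0.358 in contralateral DRG and 0.506, 1.69 and 0.8802 in CCI DRG. On FOD, Col6a6 read 0.142, 0 and 0.513 FPKM in sham DRG, 0, 0.759 and 0.403 in contralateral DRG and 0.12003, 0.307, 0.585 and 2.13 in CCI DRG. It was at 0 in 3 libraries, and the left DRG was higher in 5 of 6 rats, with a log2FC of 1.68 ± 0.74 (edgeR adjusted p = 0.429), which fell to 1.08 without the rat of FOD-CCI replicate 1. DESeq2 called Col6a6 for the mean (1.77, DESeq2 adjusted p = 0.0480) and on SOD (2.57, DESeq2 adjusted p = 0.0540). On SOD edgeR gave 2.57 (edgeR adjusted p = 0.518), and it called Col6a6 there without the rat of FOD-CCI replicate 1 (2.55, edgeR adjusted p = 0.0537). Col4a6 is a minor basement membrane chain. On SOD, Col4a6 read 0, 0.447, 0.4405 and 0.122 FPKM in sham DRG, 0.0794, 0.0561 and 0.0802 in contralateral DRG and 0.0472, 0.168 and 0.1999 in CCI DRG. On FOD, Col4a6 read 0.654, 0.269 and 0.281 FPKM in sham DRG, 0.472, 0.0589 and 0 in contralateral DRG and 0.247, 0.216, 0.0662 and 0.112 in CCI DRG. All its values were under 1 FPKM, and its log2FC was 1.12 ± 0.86 (edgeR adjusted p = 0.656). Col24a1 is a minor fibrillar chain. On SOD, Col24a1 read 2.07, 0.485, 0.661 and 0.6898 FPKM in sham DRG, 0.06205, 0.507 and 0.5405 in contralateral DRG and 0.241, 0.746 and 0.717 in CCI DRG. On FOD, Col24a1 read 0.493, 0.287 and 0.547 FPKM in sham DRG, 0, 0.4405 and 0.931 in contralateral DRG and 0.113, 1.02, 0.511 and 0.276 in CCI DRG. The highest value was that of SOD-CT replicate 1, which held muscle transcripts, and the log2FC was 1.05 ± 0.70 (edgeR adjusted p = 0.616).

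Col25a1 is a transmembrane collagen made by neurons. On SOD, Col25a1 read 0.413, 0.634, 0.429 and 0.299 FPKM in sham DRG, 0.542, 0.747 and 0.651 in contralateral DRG and 0.553, 0.569 and 0.5604 in CCI DRG. On FOD, Col25a1 read 1.96, 0.376 and 0.255 FPKM in sham DRG, 2.56, 0.277 and 0.739 in contralateral DRG and 0.476, 0.229, 0.364 and 0.705 in CCI DRG. The highest values were in replicate 1 of FOD-CCI contralateral and FOD-CT, both with spinal cord transcripts, and the log2FC was −0.72 ± 0.33 (edgeR adjusted p = 0.447). Col8a1 is a short-chain network chain of vessels. On SOD, Col8a1 read 0, 5.86, 3.95 and 1.42 FPKM in sham DRG, 0.312, 1.08 and 1.52 in contralateral DRG and 0.622, 4.302 and 0.833 in CCI DRG. On FOD, Col8a1 read 2.15, 0.633 and 2.26 FPKM in sham DRG, 1.11, 0.474 and 3.83 in contralateral DRG and 0, 1.08, 0.953 and 13.7 in CCI DRG. It varied by rat more than by group, with FOD-CCI replicate 4 far above the rest and a log2FC of −0.62 ± 0.94 (edgeR adjusted p = 0.846). Col11a2 is a fibrillar chain best known from cartilage. On SOD, Col11a2 read 1.902, 0.342, 0.364 and 3.52 FPKM in sham DRG, 0.353, 0.204 and 0.815 in contralateral DRG and 0.532, 0.299 and 0.783 in CCI DRG. On FOD, Col11a2 read 5.45, 0.685 and 0.429 FPKM in sham DRG, 1.61, 0.231 and 0.301 in contralateral DRG and 2.804, 0.606, 0.271 and 0.342 in CCI DRG. Its highest values were in FOD-CT replicate 1 and SOD-CT replicate 4, and its log2FC was 0.52 ± 0.36 (edgeR adjusted p = 0.632). Col7a1, the anchoring fibril chain of skin, was not tested. On SOD, Col7a1 read 0.198, 0, 0.0274 and 0 FPKM in sham DRG, 0.0513, 0 and 0.01196 in contralateral DRG and 0.0614, 0.0937 and 0.0701 in CCI DRG. On FOD, Col7a1 read 0, 0.201 and 0 FPKM in sham DRG, 0.0734, 0.109 and 0 in contralateral DRG and 0.0434, 0.0408, 0.0888 and 0.0536 in CCI DRG. It was at 0 in 6 libraries.

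On each diet the members' left-to-right values were also counted by sign. On SOD, 27 of 31 members had a positive left-to-right log2FC and the median was 0.52, against 0.02 over all genes. On FOD, 20 of 31 were negative and the median was −0.22, against 0.04. Without SOD-CCI rat 1 the SOD median was 0.25, with 19 of 31 positive, and without FOD-CCI rat 1 the FOD median was −0.029, with 19 of 34 negative. On SOD, 1 member was called (Col16a1, 0.131% of genes) and 9 were higher at an unadjusted p under 0.05 (5.34%), with 0 lower (3.14%). The 9 were Col16a1 and Col11a1, Col5a2, Col6a1, Col6a2, Col6a6, Col8a2, Col15a1 and Col18a1. DESeq2 called 4 on SOD, Col16a1, Col6a2, Col18a1 and Col6a6 (3.31% of genes). On FOD edgeR called 0 members (0.0137% of genes) and DESeq2 called 1, Col16a1 (1.81%). At an unadjusted p under 0.05 on FOD, 2 members were higher (Col16a1 and Col28a1, 4.3% of genes) and 4 lower (Col3a1, Col8a2, Col12a1 and Col25a1, 2.65%). These counts leaned on single rats, since 3 were higher on SOD without SOD-CCI rat 1, and 1 was lower on FOD without FOD-CCI rat 1 or rat 3. With the rat not used as a block, 1 was higher on SOD, and on FOD 0 were higher and 1 lower.

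By class, the log2FC was positive on SOD for 9 of 9 tested fibrillar chains (median 0.56), 4 of 4 type IV chains (0.52), 4 of 4 type VI chains (1.01) and both multiplexins (0.91). On FOD it was negative for 7 of 9 fibrillar (median −0.13), 3 of 4 type IV (−0.33) and 3 of 4 type VI chains (−0.49). Fibril-associated chains had medians of 0.16 on SOD and 0.12 on FOD. Without FOD-CCI rat 1, the FOD median was 0.019 for fibrillar chains, with 7 of 10 tested positive, −0.073 for type IV, −0.45 for type VI and −0.019 for fibril-associated chains. Without SOD-CCI rat 1, the SOD median was 0.25 for fibrillar chains, with 5 of 9 positive, 0.55 for type IV, with 2 of 4 positive, 0.398 for type VI and 0.51 for multiplexins.

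**Figure D4:**
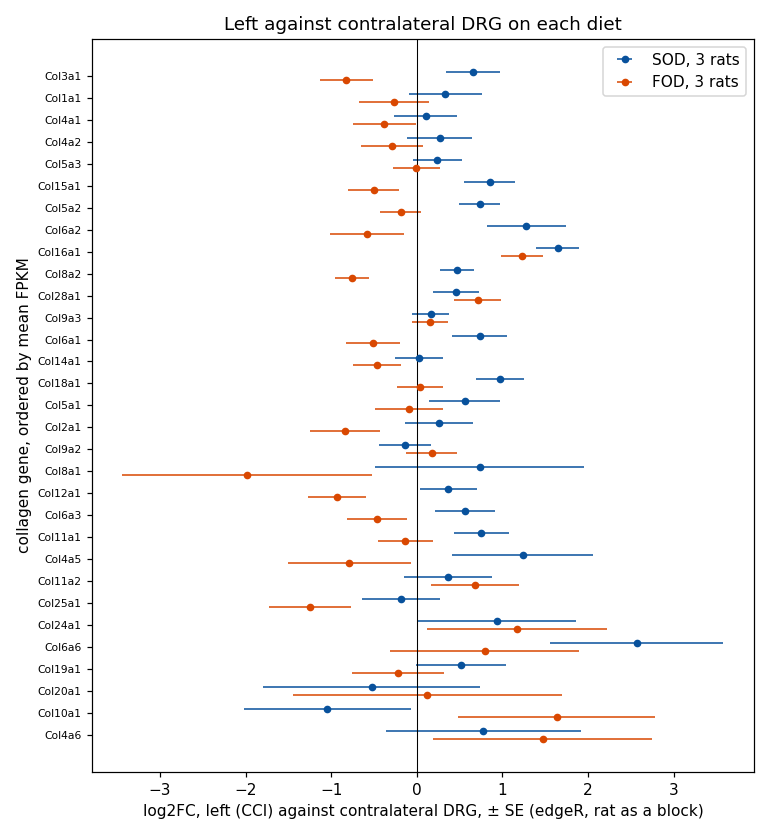
Left-to-right log2FC with its SE from edgeR with the rat as a block, for 31 tested collagen genes on SOD (blue, 3 rats) and FOD (orange, 3 rats), ordered by mean FPKM. Col16a1 lies above 0 on both diets (1.64 and 1.22), while Col15a1, Col8a2 and Col6a2 are among the genes above 0 on SOD and below 0 on FOD. Of the 31 genes, 27 lie above 0 on SOD and 20 below 0 on FOD.

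The difference between diets was tested as an interaction. edgeR called 0 members for FOD minus SOD, as it called 0% of genes, and DESeq2 called 1, Col3a1 (0.412% of genes). In FOD minus SOD, 8 members were lower at an unadjusted p under 0.05 (2.11% of genes were) and 0 higher (0.804%). These were Col3a1, Col5a2, Col6a1, Col6a2, Col8a2, Col12a1, Col15a1 and Col18a1, all with an edgeR adjusted p of 0.997. The median over members was −0.74, against 0.03 for all genes. With the rat not used as a block, 0 members were lower at that p. Without SOD-CCI rat 1, the medians of fibrillar and type IV chains in FOD minus SOD were 0.021 (5 of 9 higher) and 0.046 (3 of 4 higher). Those of type VI chains and multiplexins were −0.94 and −0.74.

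In 3 members the left DRG was higher in 3 of 3 SOD rats and lower in 3 of 3 FOD rats, a pattern that 1.26% of all genes had, and in 0 members was it reversed (1.04%). They were Col15a1, a multiplexin of basement membrane zones that is known from endoneurium, the type VI chain Col6a2, and Col8a2, a short-chain network chain. FOD-CCI replicate 4, which has no right DRG, is not in these counts. Its left DRG held the highest value of all 20 libraries for each of the 3 genes. On SOD, Col15a1 read 10.1, 13.7, 28.9 and 27.4 FPKM in sham DRG, 5.27, 21.02 and 17.2 in contralateral DRG and 16.1, 26.5 and 26.1 in CCI DRG. On FOD, Col15a1 read 11.01, 10.2 and 19.97 FPKM in sham DRG, 13.1, 15.6 and 18.4 in contralateral DRG and 5.53, 14.7, 16.1 and 38.9 in CCI DRG. The left-to-right log2FC of Col15a1 was 0.85 ± 0.30 on SOD and −0.50 ± 0.30 on FOD, a difference of −1.35 ± 0.42. On SOD, Col6a2 read 8.36, 14.6, 27.5 and 10.04 FPKM in sham DRG, 0.944, 16.1 and 12.3 in contralateral DRG and 7.66, 20.9 and 19.2 in CCI DRG. On FOD, Col6a2 read 16.6, 4.798 and 15.04 FPKM in sham DRG, 4.905, 14.7 and 18.8 in contralateral DRG and 3.85, 11.8, 9.06 and 41.4 in CCI DRG. Col6a2 had 1.28 ± 0.46 on SOD and −0.58 ± 0.43 on FOD, a difference of −1.86 ± 0.64, with a contralateral DRG of SOD-CCI rat 1 lowest. Without that rat the SOD value of Col6a2 was 0.53 and the difference −1.10. On SOD, Col8a2 read 5.71, 11.2, 17.3 and 14.6 FPKM in sham DRG, 6.92, 9.68 and 12.9 in contralateral DRG and 11.6, 13.3 and 14.4 in CCI DRG. On FOD, Col8a2 read 8.85, 8.84 and 13.6 FPKM in sham DRG, 4.86, 17.2 and 19.9 in contralateral DRG and 2.31, 12.3, 12.1 and 39.9 in CCI DRG. Col8a2 had 0.47 ± 0.20 on SOD and −0.76 ± 0.20 on FOD, a difference of −1.22 ± 0.28, and its sham groups overlapped its CCI groups.

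Marker lists of other cells are given beside these values. Of 9 tested fibroblast markers, 0 were called, 9 had a positive left-to-right log2FC on SOD (median 1.14) and 8 a negative one on FOD (median −1.03). In FOD minus SOD, 8 of the 9 were lower at an unadjusted p under 0.05 (2.11% of all genes were), with a median of −1.92. Macrophage markers had a median of −1.58 in FOD minus SOD (7 of 8 lower), endothelial markers −0.42 (8 of 8 lower), mural markers −0.51 (8 of 8 lower) and neuron markers 0.91 (10 of 10 higher), with 0 called. The left-to-right ratio of summed neuron markers was 5.16, 0.647 and 1.02 in FOD-CCI rats 1 to 3, and 1.01, 0.839 and 0.718 in SOD-CCI rats 1 to 3. Endothelial ratios were 0.450, 0.985 and 0.976 on FOD and 1.10, 1.07 and 1.06 on SOD. Mural ratios were 0.501, 1.04 and 1.09 on FOD and 1.85, 0.851 and 1.22 on SOD. In each of these 3 lists FOD-CCI rat 1 lay furthest from 1 among the FOD rats. The most abundant fibroblast markers were Dcn, Apod and Gsn, with a mean of 703, 659 and 475 CPM over libraries. The part of these cells in the collagen difference between diets was not tested. Without the rat of FOD-CCI replicate 1, the member median in FOD minus SOD was −0.53 and 7 members were lower, and the differences were −0.998 for Col15a1, −1.97 for Col6a2 and −1.08 for Col8a2. Without FOD-CCI rat 3 or SOD-CCI rat 1, 4 members were lower.

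**Figure D5:**
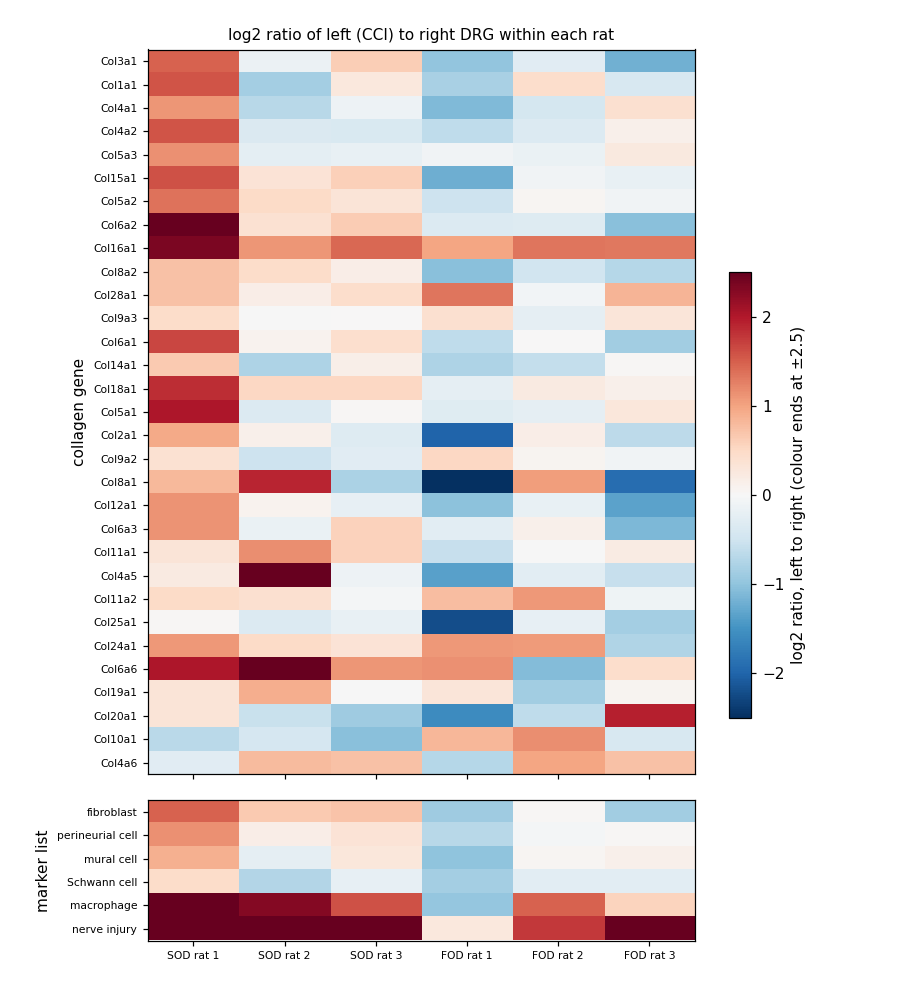
log2 ratio of left to right DRG within each of 6 rats, in FPKM + 0.1 for 31 tested collagen genes (top, ordered by mean FPKM) and in summed CPM for 6 marker lists (bottom), with red for higher on the left. Col16a1 is red in 6 of 6 rats (0.98 to 2.35), and 19 of 31 genes have their highest ratio in SOD-CCI rat 1.

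Left CCI DRG were also compared with left sham DRG, which is the study's own contrast and uses different rats. edgeR called 0 of 32 tested members in CCI versus CT on SOD, on FOD and as their mean, and 0% of all 14484 genes each time. DESeq2 called Col16a1 alone on SOD (4.72% of genes) and for the mean (3.34%), and 0 members on FOD (0.183%). At an unadjusted p under 0.05 on SOD, Col16a1 was higher (5.05% of genes) and Col20a1 lower (8.8%), and on FOD Col16a1 was higher (3.2%) and 0 lower (1.31%). For the mean of both diets, Col16a1 and Col18a1 were higher (5.9%) and Col20a1 lower (5.57%). Col20a1, a low fibril-associated chain, had −1.05 ± 0.44 on SOD (edgeR adjusted p = 0.329). All SOD-CCI values were above all SOD-CT values for 2 members, Col16a1 and Col18a1 (9.6% of genes), and on FOD for 0 members (2.51%).

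The median over the 32 tested members was 0.03 on SOD and 0.07 on FOD, with 17 and 18 of 32 above 0. With 1 library left out, it ran from −0.19 to 0.17 on SOD and from −0.34 to 0.30 on FOD. The lowest FOD value was that without FOD-CCI replicate 4. The interaction of diet and injury had 0 members at an unadjusted p under 0.05 in either direction (4.32% of genes higher and 0.684% lower), 0 called by edgeR or DESeq2, and a median of 0.04. With 1 library left out, that interaction median ran from −0.34 to 0.24, lowest without FOD-CCI replicate 4. DESeq2 gave an adjusted p for 3 members and 972 genes in all there, and called 42 of those genes (4.32%). Replicate numbers of the FOD-CT and FOD-CCI rats deviated together, and with the replicate number as a block that median was −0.53.

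Between the diets, edgeR called 0 members and 0% of genes in CCI DRG, in sham DRG and in contralateral DRG, and DESeq2 called 0 members (0.014, 0 and 0.42% of genes). FOD versus SOD, at an unadjusted p under 0.05, had 0 members in either direction in CCI DRG (3.87% of genes higher and 1.53% lower) and in sham DRG (1.77% and 1.62%). The member medians were −0.22 in CCI DRG and −0.27 in sham DRG, with 20 and 25 of 32 below 0. Leaving out FOD-CCI replicate 1 gave a CCI median of −0.072, leaving out its replicate 4 gave −0.65, and leaving out SOD-CCI replicate 3 gave −0.058, and the sham median was −0.105 without SOD-CT replicate 3 and −0.49 without FOD-CT replicate 3. In contralateral DRG 1 of 29 members was higher (4.5%) and 0 lower (2.61%). This was Col4a5, a type IV chain, at 1.98 ± 0.91 (edgeR adjusted p = 0.699).

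Contralateral DRG were set against sham DRG as 2 kinds of uninjured ganglion. edgeR and DESeq2 called 0 members on either diet, where edgeR called 0% of genes and DESeq2 0.377% on SOD and 0% on FOD. On SOD the member median was −0.38, with 19 of 29 below 0, and it was 0.019 without SOD-CCI contralateral replicate 1. On FOD it was 0.07. Fibroblast markers on SOD were lower in contralateral than in sham DRG for 9 of 9 tested (median −1.39, 0 called), whereas in CCI versus CT on SOD 7 of 9 were lower (median −0.62, 0 called). Their part was not tested. At an unadjusted p under 0.05 on SOD, 0 members were higher (1.09% of genes) and 2 lower (5.98%), namely Col11a1 at −1.36 ± 0.44 and Col4a5 at −1.92 ± 0.88 (edgeR adjusted p = 0.700 for each). On FOD 0 were higher (0.907%) and 0 lower (0.8%).

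Genes that process collagen or bind it were read from lists chosen by function. Of 10 tested genes for propeptide removal and crosslinking, 1 was called (0.962% of all genes were), namely Pcolce2, an enhancer of the procollagen C-proteinase. Its left-to-right log2FC was 1.70 ± 0.23 (edgeR adjusted p = 0.0293), with 1.68 ± 0.33 on SOD and 1.73 ± 0.33 on FOD. Against sham it was 1.72 ± 0.34 as the mean of both diets (edgeR adjusted p = 0.101). The alternatives were not read for Pcolce2, so how far its call depends on method or on 1 rat is not known. In that list Pxdn, the peroxidase that crosslinks type IV collagen, had 0.79 ± 0.22 and Tll1, a procollagen proteinase, −0.55 ± 0.16 (edgeR adjusted p = 0.218 and 0.239).

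Of 19 genes that modify and fold collagen chains, 0 were called by edgeR. At an unadjusted p under 0.05, 1 was higher, the galactosyltransferase Colgalt1 at 0.36 ± 0.13, and 1 lower, the prolyl hydroxylase subunit P4ha1 at −0.46 ± 0.13. Of all genes, 7.49% were higher and 4.1% lower at that p over both diets. Of 8 tested collagen receptors, 0 were called and 1 was higher and 1 lower at that p, namely Itgb1, the common beta chain of collagen-binding integrins, at 0.65 ± 0.16, and Itga11, an alpha chain, at −1.64 ± 0.63 (edgeR adjusted p = 0.173 and 0.355). Of 13 tested basement membrane partners, 0 were called, 0 were higher and 1 lower at that p, and Nid1, which links laminin to type IV collagen, had −0.30 ± 0.13 (edgeR adjusted p = 0.419). Of 15 tested proteoglycans and glycoproteins bound to fibrils, 0 were called and 0 passed an unadjusted p under 0.05 over both diets. In that list 7 were higher at an unadjusted p under 0.05 on SOD (5.34% of all genes were), 6 lower on FOD (2.65%) and 9 lower in FOD minus SOD (2.11%). The fibril-bound Dcn, Lum and Fbln1 are on the fibroblast list too.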

How the data were processed

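DRG RNA was measured by poly-A RNA-seq. Per the labels and methods, the authors used fastp for trimming, HISAT2 for alignment and featureCounts 1.5.0-p3 for counting. The genome build and the use of strand are not given in the sources used here. They deposited whole counts per gene and FPKM values. The deposited FPKM, divided into counts and lengths, gave a single constant in each library (its DESeq2 size factor times 29715791, the geometric mean of library totals), so FPKM compares libraries on size factors and not on totals.

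Members and lists were chosen with earlier results of these data known. Counts were tested with edgeR 4.0.16 in R 4.3.3 (TMM, two-sided quasi-likelihood test, a minimum of 10 counts in 90% of a model's libraries or more, Benjamini-Hochberg adjustment over all genes). The models held 14 left libraries, 12 libraries of 6 rats with the rat as a block, and 13 sham and contralateral libraries. Deviations of both DRG of a rat from their group means correlated at 0.150 to 0.504 in 6 rats. Same-numbered FOD-CT and FOD-CCI libraries, from different rats, correlated at 0.489, 0.288 and 0.247. Single genes were tested by exact permutation on log2(FPKM + 0.1). Scripts were tested on simulated counts.

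Values are named for the called member, the 8 members with the largest left-to-right log2FC over both diets, the highest member of each class, and the type I and main type IV pairs. Other collagen genes are those called, else the 2 largest changes at an unadjusted p under 0.05. Alternatives were DESeq2 1.42.0, its size factors, no filter, limma 3.58.1 on FPKM, other blocks, and libraries left out. Shares called by DESeq2 are of the genes that it gave an adjusted p. Col23a1 and a Col4a4-like gene, under placeholder symbols, were not counted as members.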

Additional observations from a re-analysis of the deposited data

Results flagged for a closer look

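Values in groups of 4 rats were flagged when 1 of them lay far from the others by Dixon's test. There were 36 such tests, and chance flags about 1 in 20 groups. In SOD-CT, replicate 1, which held muscle transcripts, was low for Col16a1 at 4.40 FPKM (nearest other 9.22) and high for Col24a1 at 2.07 (nearest 0.690) and Col7a1 at 0.198 (nearest 0.0274). In FOD-CCI, replicate 1, which held spinal cord transcripts, was high for Col11a2 at 2.80 FPKM (nearest 0.606) and low for Col18a1 at 4.02 (nearest 10.4). FOD-CCI replicate 4 was high for Col8a1 at 13.7 FPKM (nearest 1.08), a library that also held the most fibroblast markers. The part of other tissue in these values was not tested.

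Left-to-right differences of 3 genes were flagged because the left DRG was higher in every SOD rat and lower in every FOD rat with both DRG. FOD-CCI replicate 4, which has no right DRG, held the highest value of each of the 3 genes over 20 libraries. The difference of FOD minus SOD was −1.35 for Col15a1, −1.22 for Col8a2 and −1.86 for Col6a2 on the log2 scale, and the interaction test of edgeR gave an adjusted p of 0.997 for each.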

How the results depend on the processing

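With 3 or 4 rats a group, differences of several times their error could miss the threshold once adjusted over all genes (Col16a1 in CCI versus CT on SOD, 1.81 ± 0.46), and members under 1 FPKM rest on few counts. The first set of alternatives changed the method or left out the libraries with muscle or spinal cord transcripts, between the sides FOD-CCI rat 1 alone. Under these, 401 of the values for single genes kept direction and side of the threshold and 7 changed sign. Another 14 gained a call and 4 lost one. Under the alternatives that left out 1 rat or library, 529 kept both, 23 changed sign, 4 gained a call and 5 lost one. The causes were not tested.

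Counts of members called in CCI versus contralateral DRG changed as follows. With DESeq2, which called 5.54%, 3.31%, 1.81% and 0.412% of genes in the 4 comparisons, they were 2 for the mean of both diets (Col16a1 and Col6a6), 4 on SOD (Col16a1, Col6a2, Col18a1 and Col6a6), 1 on FOD (Col16a1) and 1 for FOD minus SOD (Col3a1). With no replicate block, so that the pairing of both DRG of a rat was dropped, they were 0 for the mean and 0 on SOD. On SOD they were 0 with DESeq2 size factors in edgeR, 0 with limma on log2(FPKM + 0.1), and 2 with the libraries holding muscle or spinal cord transcripts left out (Col16a1 and Col6a6), which between the sides is FOD-CCI rat 1 alone. FOD-CCI contralateral replicate 3 and SOD-CCI contralateral replicate 2, with 7732 and 2030 CPM of muscle markers, stayed in. SOD-CT replicate 4, which also held muscle transcripts, stayed in the comparisons with sham. On FOD there was 1 with no filter on low counts (Col16a1). With 1 rat left out, the count ran from 0 to 1 for the mean, being 0 without SOD-CCI replicate 3, and from 0 to 2 on SOD, being 0 without any 1 of the SOD-CCI rats or FOD-CCI replicate 2 and 2 without FOD-CCI replicate 1.

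In CCI versus CT, Col16a1 was the 1 member called with DESeq2 for the mean and on SOD, with the muscle or spinal cord libraries left out for the mean, on SOD and on FOD, and with no filter for the mean. That leaves FOD-CT with 1 library, assumed to vary like the others. With 1 library left out, the count ran from 0 to 1 for the mean (1 without FOD-CCI replicate 1 or SOD-CT replicate 1) and from 0 to 1 on SOD (1 without FOD-CCI replicate 1). The replicate block changed no count of calls in CCI versus CT, and the member median of FOD minus SOD became −0.53. In FOD versus SOD among CCI DRG it moved the members lower at an unadjusted p under 0.05 from 0 to 10, but same-numbered rats of those groups share only a number (correlations 0.156, −0.040 and −0.087).

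With muscle or spinal cord libraries left out, left-to-right values over both diets were 0.011 for Col1a2, 0.036 for Col4a1, 0.072 for Col4a2 and 0.13 for Col8a1, that of Col28a1 for FOD minus SOD was −0.077, and contralateral versus CT on FOD for Col16a1 was 0.22. With no replicate block, Col1a1 over both diets was −0.11. With 1 rat or library left out, the left-to-right ranges over both diets were −0.27 to 0.33 for Col1a1, −0.30 to 0.035 for Col1a2, −0.28 to 0.12 for Col3a1, −0.38 to 0.060 for Col4a1, −0.32 to 0.16 for Col4a2, −0.0087 to 0.35 for Col15a1, −0.025 to 0.61 for Col6a2 and −1.47 to 0.13 for Col8a1. They were −0.050 to 0.65 for Col12a1 on SOD, −0.040 to 0.16 for Col18a1 on FOD and −0.077 to 0.66 for Col28a1 in FOD minus SOD. In CCI versus CT on FOD, Col28a1 ran from −0.095 to 0.50, and in contralateral versus CT, Col16a1 ran from −0.55 to 0.21 on FOD and from −0.087 to 0.58 on SOD. Col16a1 stayed higher in CCI DRG in every setting of the left-to-right and CCI versus CT comparisons, at 1.26 to 1.57 and 1.38 to 1.69 for the means of both diets.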
